A study of Rattus norvegicus with 3 samples.

Results

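Transcripts of 10 hair cell genes were followed through single-cell RNA sequencing libraries of the postnatal rat cochlea. The genes were Myo7a, Pou4f3, Atoh1, Otof, Slc17a8, Tmc1, Espn, Myo6, Cabp2 and Cib2, chosen by name, 10 of the 32623 genes in the matrices. They were read in every barcode with more than 500 genes and less than 25% of its unique molecular identifiers (UMIs, each marking 1 captured transcript) on mitochondrial genes, which kept 31108 of 34927 barcodes. The study asked how cells of the greater epithelial ridge, a transient epithelium beside the hair cells, relate to hair cells during postnatal development. It dissociated cochlear tissue of untreated Sprague-Dawley rats from pups aged 1, 7 or 14 days after birth (P1, P7 and P14), pooled the rats of a stage and made 1 library per stage. With 1 library per stage no test between stages was possible, and stage cannot be told apart from library, dissection or dissociation. Levels are in CPM, the UMIs of a gene divided by all UMIs of the same barcodes and multiplied by 1000000. Each value is followed in parentheses by its exact 95% interval (Poisson for a level, Clopper-Pearson for a share of barcodes), which covers counting error only.

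Hair cells are the mechanosensory receptors of the organ of Corti. A bundle of actin-filled stereocilia on their apical face carries the transduction channels, and synapses at their base release glutamate onto the spiral ganglion neurons. Atoh1 starts the hair cell program and Pou4f3 and other factors carry it on, inner hair cells use the vesicular glutamate transporter encoded by Slc17a8 and the calcium sensor encoded by Otof for release, and outer hair cells amplify sound with the motor protein encoded by Slc26a5. Both types arise before birth in rodents and mature over the first postnatal weeks.

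Atoh1 encodes a basic helix-loop-helix factor of the class that binds the E-box CANNTG (N is any base; the motif reads the same on both strands, and no other motif was searched). To show what lies before genes found together below, the 250 bases before the annotated start of Atoh1 itself, of Otof and of Slc17a8 are given 5′ to 3′ on the gene's strand, from RefSeq on build GRCr8, with each E-box in capitals. The windows are chr4:95241683-95241932 (plus strand) for Atoh1, chr6:31647664-31647913 (plus strand) for Otof and chr7:25935411-25935660 (minus strand) for Slc17a8.
Atoh1: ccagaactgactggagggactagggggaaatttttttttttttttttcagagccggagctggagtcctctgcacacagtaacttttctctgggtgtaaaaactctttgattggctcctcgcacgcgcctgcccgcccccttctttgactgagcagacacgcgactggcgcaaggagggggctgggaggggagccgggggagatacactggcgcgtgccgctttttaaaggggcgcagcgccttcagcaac
Otof: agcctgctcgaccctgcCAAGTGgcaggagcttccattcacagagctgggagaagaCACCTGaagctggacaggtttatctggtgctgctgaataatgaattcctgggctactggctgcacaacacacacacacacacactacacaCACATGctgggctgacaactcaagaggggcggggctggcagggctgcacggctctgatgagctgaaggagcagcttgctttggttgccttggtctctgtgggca
Slc17a8: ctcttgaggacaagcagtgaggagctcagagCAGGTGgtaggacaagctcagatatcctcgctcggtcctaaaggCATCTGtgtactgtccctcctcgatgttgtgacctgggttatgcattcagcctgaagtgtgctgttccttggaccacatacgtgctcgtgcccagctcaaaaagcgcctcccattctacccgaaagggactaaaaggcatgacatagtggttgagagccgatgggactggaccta
The E-boxes began 233, 194 and 104 bases before the start of Otof and 219 and 175 bases before that of Slc17a8. Of the 10 genes, all of which matched the table, 7 had at least 1 E-box in such a window (Cabp2 in 1 of its 2 entries), and Atoh1, Myo6 and Cib2 had none. Over all 33469 windows of this length, 65.5% held an E-box, so the share among the 10 genes was near the background.

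The labels give the cell type of every library as greater epithelial ridge cell, while the study's methods describe the whole dissociated membrane, and the marker genes went with the methods. Clustering without the hair cell genes gave 27 clusters, of which 15 took a name from marker lists. The cochlear epithelium-like cluster (Epcam, Tecta, Epyc) held 565 barcodes and a hair cell-like cluster 21, so that the epithelial clusters took 303, 230 and 53 barcodes of the P1, P7 and P14 libraries and the rest lay in 9 other named classes, among them mesenchyme and fibrocyte-like, fibroblast-like, glia-like, dividing-like and neuron-like ones, or in unnamed clusters. The libraries held 112269286, 96017007 and 11673483 UMIs in kept barcodes at P1, P7 and P14. The median per barcode was 6679, 6903 and 1615, so the P14 library was much shallower. In all, 89 barcode sequences occurred in more than 1 library among kept barcodes.

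The hair cell genes stood highest at P1. The 7 genes known mainly from hair cells (Myo7a, Pou4f3, Atoh1, Otof, Slc17a8, Tmc1 and Cabp2, called restricted here) together had 782 UMIs at P1, 98 at P7 and 18 at P14. That is 6.97 CPM (6.49 to 7.47) at P1, 1.02 CPM (0.829 to 1.24) at P7 and 1.54 CPM (0.914 to 2.44) at P14, and the P1 interval stood clear of the others. These levels rested on barcodes with a high mitochondrial share: with a limit of 10% in place of 25% they were 1.33 CPM at P1, 0.737 CPM at P7 and 1.36 CPM at P14. Between P1 and P7, 7 of the 10 genes were at least 2-fold lower, beside 14.1% of the 16092 genes with at least 30 UMIs (3 counts stood in for fewer on the lower side; Tmc1 had too few UMIs to enter), and none was 2-fold higher, beside 11.7%. Between P1 and P14, 4 of the 10 were at least 2-fold lower (12.6% of all genes) and 0 were higher (28.5%). At P14 the 3 counts stand for 0.257 CPM. Atoh1 and Slc17a8 could thus be at most 1.98-fold lower, and Myo7a was below that limit at P1 already (0.205 CPM). None of these could be called lower at P14. Between P7 and P14 Cib2 alone was at least 2-fold lower (8.72% of all genes) and Espn alone higher (26.6%). Myo7a, Pou4f3, Atoh1, Otof and Slc17a8 were below the P14 limit at P7 and could not be called lower.

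Among the transcription factors, Pou4f3, which hair cells need to survive, had 125 UMIs at P1, 0 at P7 and 1 at P14. Its level at P1 was 1.11 CPM (0.927 to 1.33), and a count of 0 at P7 allows up to 0.0312 CPM, so it was at least 35.6-fold lower there. Atoh1 had 57 UMIs at P1 (0.508 CPM, 0.385 to 0.658), 7 at P7 (0.0729 CPM, 0.0293 to 0.150) and 0 at P14, where the depth allows up to 0.257 CPM. Atoh1 was thus 6.96-fold lower at P7 than at P1, and the P14 library could not separate absence from a level just under 2-fold below that at P1. The P1 levels rested on barcodes with a high mitochondrial share. With a limit of 10% Pou4f3 was at 0.106 CPM at P1, 0 CPM at P7 and 0.0909 CPM at P14. Atoh1 was then at 0.085 CPM at P1 and 0.0682 CPM at P7.

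The synaptic genes were likewise highest at P1. Otof, which encodes otoferlin, the calcium sensor of transmitter release, had 324 UMIs at P1 (2.89 CPM, 2.58 to 3.22), 8 at P7 (0.0833 CPM, 0.0360 to 0.164) and 1 at P14 (0.0857 CPM, 0.00217 to 0.477). It was 34.6-fold lower at P7 than at P1. With a mitochondrial limit of 10% Otof was at 0.382 CPM at P1 and 0.0682 CPM at P7. Slc17a8 had 57, 5 and 0 UMIs, a 9.75-fold lower level at P7. Cabp2, a calcium-binding protein that tunes the presynaptic calcium channels, had 190 UMIs at P1 (1.69 CPM, 1.46 to 1.95), 65 at P7 (0.677 CPM, 0.523 to 0.863) and 15 at P14 (1.29 CPM, 0.719 to 2.12). It was 2.50-fold lower at P7, and its P14 interval overlapped both other stages.

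The genes of the bundle and of mechanotransduction fell into rare and abundant ones. Myo7a, an unconventional myosin of the stereocilia, had 23, 11 and 1 UMIs, and Tmc1, a pore subunit of the transduction channel, had 6, 2 and 0. Their intervals overlapped between all stages, so no difference was detectable at this depth. Espn, the actin bundler of stereocilia, had 1952 UMIs at P1 (17.4 CPM, 16.6 to 18.2), 233 at P7 (2.43 CPM, 2.13 to 2.76) and 98 at P14 (8.40 CPM, 6.82 to 10.2). It was thus 7.17-fold lower at P7 than at P1 and 3.46-fold higher at P14 than at P7, with no overlap between stages. Cib2, a calcium-binding partner of the transduction channel, was lower at each later stage, with 5545 UMIs at P1 (49.4 CPM, 48.1 to 50.7), 2049 at P7 (21.3 CPM, 20.4 to 22.3) and 76 at P14 (6.51 CPM, 5.13 to 8.15). Myo6, the myosin at the base of the stereocilia, which many other cells also express, was at 118 CPM (116 to 120.4), 88.8 CPM (87.0 to 90.7) and 104 CPM (98.3 to 110.1), a difference of at most 1.33-fold with no overlap between stages.

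**Figure D1:**
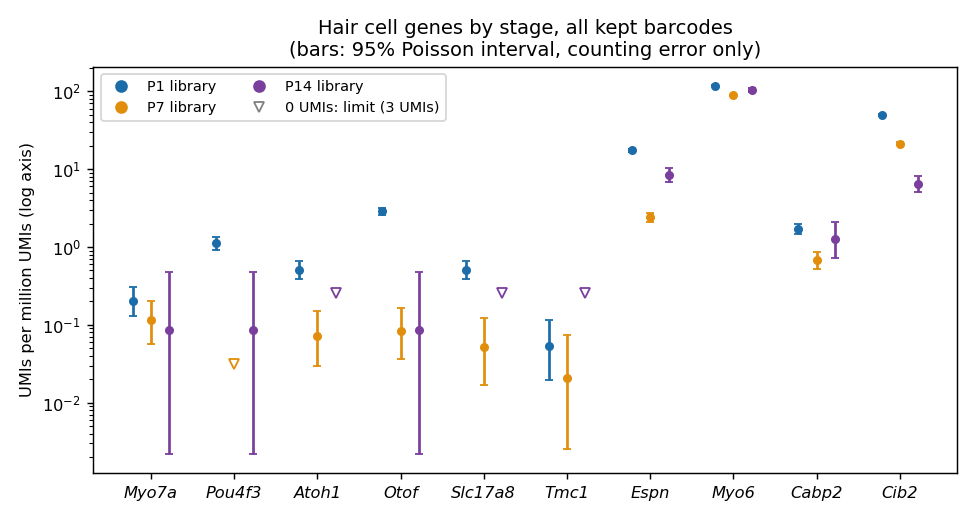
Level of each of the 10 genes in CPM (log axis) in the P1, P7 and P14 libraries, over all kept barcodes; bars are 95% Poisson intervals and open triangles the limit of 3 UMIs where none was counted. Pou4f3, Otof, Atoh1 and Slc17a8 stood clearly higher at P1 than at P7, and Myo6 moved least.

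Most restricted UMIs of the P1 library lay in a small group of barcodes. At P1, 13007 of 13162 barcodes had no UMI of any restricted gene, 127 had 1 of the 7 genes, 7 had 2 and 21 had 3 to 7. These 21 barcodes, called co-detecting, made up 0.160% (0.0988 to 0.244) of the P1 barcodes and 0.327% of the P1 UMIs, and held 614 of the 782 restricted UMIs, or 78.5%. At P7, 93 of 12664 barcodes had 1 restricted gene, and at P14 18 of 5282 had 1. No barcode had 2 at either stage, where 0 co-detecting barcodes allows a share of up to 0.0237% at P7 and 0.0568% at P14. Each of the 21 possible pairs of restricted genes was found together in at least 1 barcode at P1, and none was at P7 or P14. Outside the co-detecting barcodes the 7 genes summed to 1.501 CPM (1.28 to 1.75) at P1, beside 1.02 CPM at P7 and 1.54 CPM at P14. This leaves a gap to P7 without overlap and none to P14. Cabp2 made up 63 of the 168 UMIs outside the co-detecting barcodes at P1, 65 of 98 at P7 and 15 of 18 at P14. The later sums thus rest mostly on Cabp2. Single genes differed there: Otof was still 5.15-fold lower at P7 than at P1 (48 UMIs at P1, 8 at P7), Slc17a8 3.09-fold lower (18 and 5) and Pou4f3 had 22 UMIs at P1 and 0 at P7, while Atoh1 had 9 and 7, Myo7a 7 and 11 and Cabp2 63 and 65. Leaving out barcodes chosen for these genes can only lower the P1 side.

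**Figure D2:**
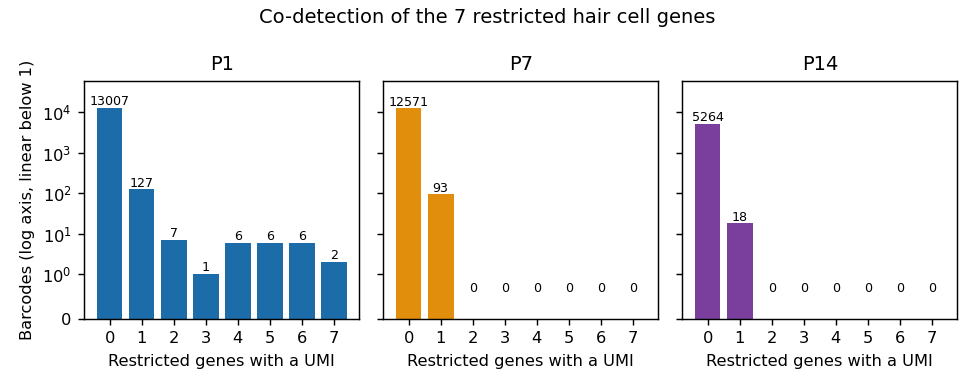
Number of barcodes (log axis, linear below 1) by how many of the 7 restricted genes had a UMI, in the P1, P7 and P14 libraries. Barcodes with 3 or more were found at P1 alone, 21 in all, while P7 and P14 stopped at 1 gene.

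Pairs of genes show the same grouping as a description. Of the 33 P1 barcodes with Pou4f3, 22 also had Otof (66.7%, 48.2 to 82.0), against 34 of the 13129 without it (0.259%). Of the 56 barcodes with Otof, 36 also had Cib2 (64.3%) and 45 Myo6 (80.4%), against 19.9% and 50.6% of the barcodes without Otof. Myo6 was thus a weak guide to the others, since it was found in 50.7% of all P1 barcodes.

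The just-missed barcodes at P1 were of mixed kind. Of the 7 with exactly 2 restricted genes, 2 lay in the hair cell-like cluster, 1 with 5 UMIs of Pou4f3 and 9 of Otof at a depth of 7735 UMIs and 1 with 1 UMI of Otof and 2 of Cabp2 at 3692 UMIs. Another 2 were neuron-like barcodes of 26252 and 35260 UMIs with 1 UMI each of Pou4f3 and Slc17a8. The only barcode just inside the limit, with 3 restricted genes, had 26 UMIs of Otof, 2 of Pou4f3 and 1 of Tmc1.

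Depth set how far the stages could be compared. With every barcode thinned to 1614 UMIs, near the median of the P14 library, 6 of the 21 kept 3 restricted genes, 14 kept at least 2 and 18 at least 1. These 6 are 0.0456% of the P1 barcodes, under the P14 limit. Barcodes with 3 restricted genes at the P1 frequency would thus not be detectable if they had this depth. The 14 with at least 2 are 0.106%, above the P14 limit of 0.0568% for its 0 barcodes with 2. Epithelial barcodes of P14 were deeper, with a median of 3933 UMIs. Thinning to that depth was not done, so whether such barcodes were detectable at P14 was not settled. At P7, where the median depth was close to that of P1 over all barcodes but lower among epithelial ones (7225 against 8127 UMIs), the limit of 0.0237% lay below the P1 interval. Among epithelial barcodes alone, 20 of 303 were co-detecting at P1 (6.60%, 4.08 to 10.0), 0 of 230 at P7 (up to 1.30%) and 0 of 53 at P14 (up to 5.66%, inside the P1 interval). Whether fewer hair cells entered the later libraries or each held less of these transcripts cannot be told apart.

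Free RNA can give single UMIs in cells that do not express a gene, and its level was not measured directly. Endothelial-like barcodes, which should lack these genes, had a restricted UMI in 1 of 201 at P1 (0.498%, median depth 11031 UMIs), 1 of 194 at P7 (0.516%, 7014) and 2 of 984 at P14 (0.203%, 1154). Over all kept barcodes the share was 1.18% at P1, 0.734% at P7 and 0.341% at P14. The endothelial intervals reached 2.74% at P1, 2.84% at P7 and 0.732% at P14. At no stage could the share over all barcodes thus be separated from that in endothelial-like barcodes, which rests on 1 or 2 barcodes per stage. Larger classes differed. At P1 mesenchyme and fibrocyte-like barcodes were at 0.301% (0.144 to 0.553), below the interval over all barcodes (1.00 to 1.38). At P7 fibroblast-like ones were at 0.0627% (0.00159 to 0.349), below 0.593 to 0.899. Glia-like ones were not lower, at 1.54% (0.843 to 2.57) at P1 and 1.13% (0.761 to 1.60) at P7. Thinned to 1000 UMIs, the overall shares were 0.320%, 0.112% and 0.0880%.

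The 21 co-detecting barcodes carried a broad set of the 10 genes. Each had 6 to 10 of the genes with a UMI (median 8). Every one of the 21 had Pou4f3 (2 to 12 UMIs, median 5), Otof (1 to 42, median 10), Espn (6 to 41, median 17), Myo6 (10 to 93, median 31) and Cib2 (11 to 116, median 35). Cabp2 was found in 18, Atoh1 in 17, Slc17a8 in 13, Myo7a in 12 and Tmc1 in 5. Since the restricted genes chose these barcodes, their own levels there are a description: Otof was at 751 CPM (665 to 845) beside 0.429 CPM in all other P1 barcodes, Pou4f3 at 280.2 CPM (229 to 340) beside 0.197 CPM, and Atoh1 at 131 CPM (96.3 to 173) beside 0.0804 CPM.

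Espn, Myo6 and Cib2 took no part in that choice. Espn was at 1028 CPM (927 to 1137) in the co-detecting barcodes and 14.1 CPM (13.4 to 14.8) in the other P1 barcodes, 73.1-fold apart. Cib2 was at 2285 CPM (2133 to 2445) against 42.1 CPM, 54.4-fold, and Myo6 at 1825 CPM (1690 to 1969) against 113 CPM, 16.2-fold. The other 283 epithelial P1 barcodes were at 90.0 CPM for Espn, 189 CPM for Cib2 and 69.1 CPM for Myo6. Against those the gap was smaller for Espn and Cib2 and larger for Myo6. Most of their P1 UMIs nevertheless lay elsewhere, since the co-detecting barcodes held 19.4% of the Espn UMIs, 15.1% of those of Cib2 and 5.05% of those of Myo6.

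**Figure D3:**
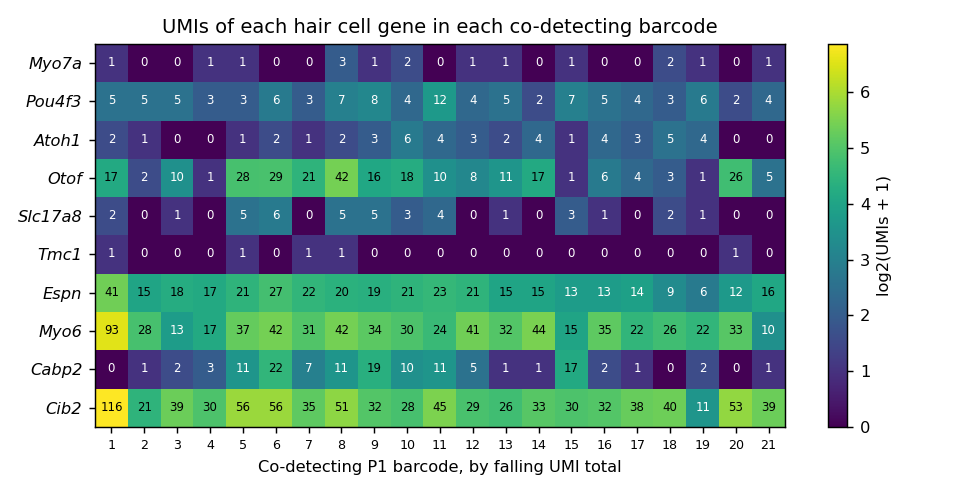
UMIs of each of the 10 genes (rows) in each of the 21 co-detecting P1 barcodes (columns, by falling UMI total); the number in a cell is the count and the colour its log2 after adding 1. Pou4f3, Otof, Espn, Myo6 and Cib2 are above 0 in every column, while Tmc1 is above 0 in 5.

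The co-detecting barcodes differed from others in quality measures too. Their UMI totals ran from 10136 to 29282 with a median of 16375, against 7735 in the other epithelial P1 barcodes and 6676 in all other P1 barcodes. Their mitochondrial share ran from 5.79% to 20.2% with a median of 16.3%, against 7.72% and 6.80%. The part of depth and mitochondrial share in the results was not tested; with a limit of 10% on the mitochondrial share, 1 of the 21 was kept. Clustering without the hair cell genes placed 19 of the 21 in the hair cell-like cluster, 1 with the cochlear epithelium and 1 with neurons. The neuron-like one had 125 UMIs of the 8 neuron markers, 29 of them Tubb3, and was the only one that Scrublet marked as a doublet. Over all 21, Tubb3 was at 0 in 16 barcodes and the neuron list summed to 1083 CPM, against 10266 CPM in neuron-like and 103 CPM in other epithelial barcodes, the mesenchyme and fibrocyte list to 427 CPM, the glia list to 237 CPM and the B lineage list to 169 CPM, and the macrophage, endothelial and pericyte lists to 5.44, 2.72 and 2.72 CPM. In the other epithelial barcodes the mesenchyme, glia and B lineage lists summed to 2726, 823 and 149 CPM. The part of RNA of other cells in the results was not tested. The barcode sequence of 1 of the 21 also occurred in another library.

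By cell class, all 10 genes were highest in the hair cell-like cluster at P1. Its 21 barcodes all came from the P1 library, and Acbd7, Calb1, Pcp4 and Cd164l2 led its genes. For each of the 10 its interval stood apart from that of the class ranked second among 17 classes with at least 50 barcodes or the hair cell-like name. The same count was not made over all genes, so it is a description only. Otof was at 835 CPM (739 to 940) there and at 4.83 CPM (2.57 to 8.26) in the cochlear epithelium-like cluster. The epithelium-like level came mostly from its single co-detecting barcode, which held 10 of its 13 Otof UMIs and all 5 of its Pou4f3 UMIs; without that barcode the other 281 had 3 UMIs of Otof (1.13 CPM, 0.232 to 3.29) and 0 of Pou4f3. Cabp2 was 167-fold higher than in glia-like barcodes and Slc17a8 129-fold higher than in neuron-like barcodes. The cluster was named from lists that include these genes but was formed without them.

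The broader genes had second places with real levels. Espn was at 1091 CPM (980.5 to 1210) in the hair cell-like cluster, at 92.2 CPM (86.9 to 97.7) in neuron-like and at 91.4 CPM (80.3 to 104) in cochlear epithelium-like barcodes, whose intervals overlapped. Its lowest level was 0.542 CPM, in endothelial-like barcodes. Cib2 was at 2486 CPM (2318 to 2662), then at 190 CPM (173 to 207) in the epithelium-like and 141 CPM in the neuron-like cluster. Myo6 was found in every class, from 1965 CPM (1816 to 2123) in the hair cell-like to 18.6 CPM in the macrophage-like one.

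**Figure D4:**
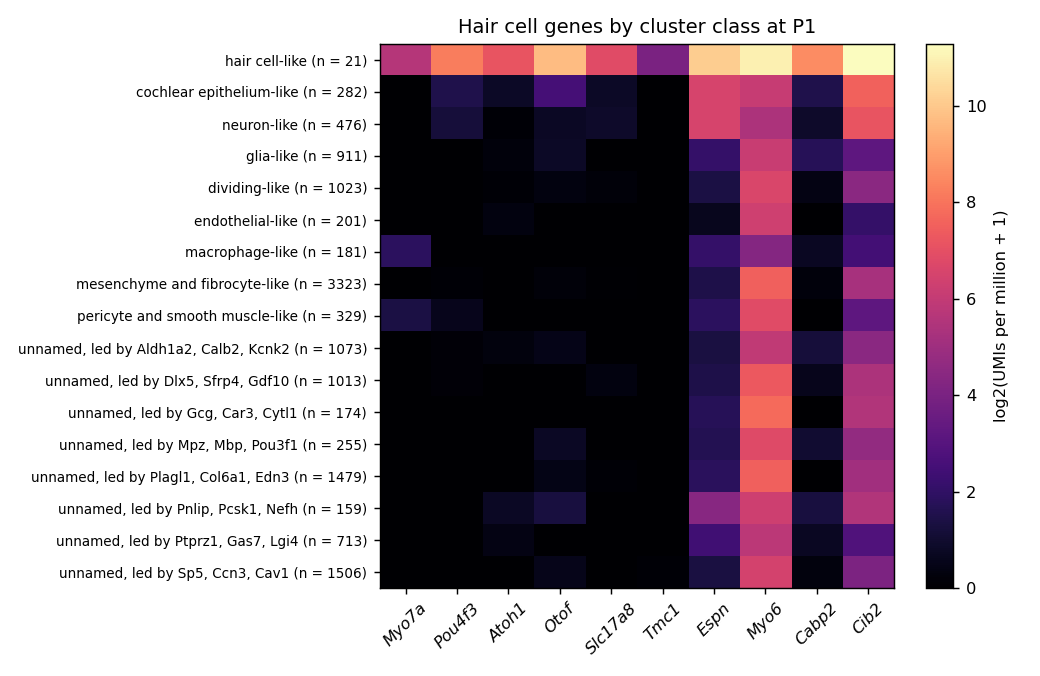
Level of the 10 genes (columns) in 17 cell classes at P1 (rows, with the number of barcodes), as log2 of CPM after adding 1. The hair cell-like row is the brightest in every column, and Espn, Myo6 and Cib2 are also above 0 in all other rows.

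Neuron-like barcodes carried much of the Espn and Cib2 signal of the P1 library. They held 10.95% of the P1 UMIs but 58.0% of those of Espn, 1133 of 1952, and 31.3% of those of Cib2. The class had 476 barcodes at P1, 1 at P7 and 7 at P14, and held 4 of 233 Espn UMIs at P7 and 2 of 98 at P14. Outside the neuron-like class Espn was at 8.19 CPM (7.64 to 8.77) at P1, 2.39 CPM (2.09 to 2.72) at P7 and 8.27 CPM (6.70 to 10.1) at P14. Its lower level at P7 thus held without neuron-like barcodes, while its 2.07-fold lower level at P14 than at P1 did not. Cib2 was at 38.1 CPM (36.9 to 39.3), 21.3 CPM (20.4 to 22.3) and 5.77 CPM (4.47 to 7.33) outside that class, so its order of stages held, with P7 less than 2-fold below P1. Within the cochlear epithelium-like cluster Espn was at 91.4 CPM (80.3 to 104) at P1, 20.8 CPM (15.6 to 27.3) at P7 and 4.76 CPM (0.121 to 26.6) at P14. Cib2 went from 190 CPM (173 to 207) to 77.7 CPM (67.2 to 89.5) and 23.8 CPM (7.74 to 55.6). Both were lower at P7 than at P1 inside that cluster by non-overlapping intervals, while Myo6 was at 68.0 CPM (58.5 to 78.6) and 69.7 CPM (59.7 to 80.9).

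At P7 and P14 few UMIs of the restricted genes were left. Of the 8 Otof UMIs at P7, 5 lay in the cochlear epithelium-like cluster (2.00 CPM, 0.651 to 4.68), each in a barcode of its own, and the other 3 in a cluster led by Dlx5, Sfrp4 and Gdf10. Cabp2 had the most UMIs of the 7 genes at both stages. Glia-like barcodes held 30 of its 65 UMIs at P7 and 7 of its 15 at P14, with 15.3% and 7.46% of all UMIs of those libraries. Its glia-like level was 2.30 CPM (1.19 to 4.02) at P1, 2.04 CPM (1.37 to 2.91) at P7 and 8.04 CPM (3.23 to 16.6) at P14. The P14 interval overlapped that of P1 but not that of P7. The class holds other clusters at P14 (329 of its 339 barcodes in a cluster with 0 barcodes at P1 and 4 at P7), so that stage and cluster cannot be told apart there, and no glia-like barcode at any stage joined the co-detecting ones.

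Other genes of the hair cell, which had no part in choosing the barcodes, went with co-detection. A list of 65 such genes, 62 of them in the matrices, was compared between the 20 co-detecting and the 283 other epithelial barcodes of P1. Of the 62, 39 were at least 2-fold higher, 0 were lower, 5 were neither and 18 had fewer than 10 UMIs over the barcodes compared. Over all 10328 genes with that many UMIs, 15.6% were higher and 14.9% lower. A gene can reach 10 UMIs through the co-detecting side alone, as 18 of the list did. The counts by role below include such genes and have no count over all genes beside them, so they are a description. Of the 26 listed genes that had 10 UMIs in the other epithelial barcodes by themselves, 22 were higher, beside 12.8% of all such genes.

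Mechanotransduction genes gave 5 of 11 higher and 1 neither, with the rest too rare. Lhfpl5, a subunit of the transduction complex, was found in all 20 barcodes with 360 UMIs (1053 CPM), against 16 UMIs in the other 283 (5.97 CPM), a 176-fold difference. Most of its P1 UMIs nevertheless lay elsewhere. The co-detecting barcodes held 16.65% of its 2210 UMIs at P1, and all other P1 barcodes were at 16.46 CPM. Loxhd1 had 17 UMIs against 0, at least 44.4-fold higher, and Clrn1 24 against 5. Of the 982 Clrn1 UMIs at P1, the co-detecting barcodes held 2.65%. Tmc2, the early partner of Tmc1, had 3 UMIs and Cdh23 and Pcdh15, the proteins of the tip link, 1 and 4, too few to compare. Ush1c, a scaffold protein of the links, was at 76.0 CPM against 61.6 CPM and passed neither limit.

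Hair bundle and cuticular plate genes gave 14 of 18 higher and 1 neither. Grxcr2, needed for stereocilia shape, had 257 UMIs in 19 of the 20 barcodes (752 CPM) against 7 in the others (2.61 CPM), 288-fold apart. Smpx (579 CPM against 17.2 CPM) and Grxcr1 (459 CPM against 9.34 CPM) were each found in all 20. Myo3a, a motor at stereocilia tips, had 78 UMIs against 0, and Xirp2 54 against 0, at least 204-fold and 141-fold higher. Ptprq, a phosphatase of the shaft connectors, was in all 20 with 87 UMIs against 3. Eps8 was at 41.0 CPM against 23.9 CPM and stayed under 2-fold.

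Among regulators, 4 of 7 in the matrices were higher. Hes6 was at 1000 CPM against 139 CPM, 7.22-fold, and Barhl1 had 32 UMIs against 0, at least 83.6-fold higher. Of the 9894 Hes6 UMIs at P1, the co-detecting barcodes held 3.69%. Gfi1, a repressor downstream of Pou4f3 in hair cells, had 15 UMIs in 9 barcodes against 1. Tbx2, which marks the inner hair cell fate, had 1 UMI against 9 and passed neither limit. Of the Notch ligands that hair cells present to their neighbours, Jag2 was at 111 CPM against 4.48 CPM, 24.8-fold, and Dll1 had 8 UMIs against 0.

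Channels, synapse genes and calcium buffers gave 6 of 11 and 9 of 13 higher. Chrna10 and Chrna9, the subunits of the efferent acetylcholine receptor, had 75 UMIs against 0 and 36 against 1. Cacna1d, the calcium channel of the ribbon synapse, was 10.4-fold higher, while Ctbp2, whose locus also encodes the ribbon protein, was at 17.6 CPM against 16.4 CPM. Of the 910 Cacna1d UMIs at P1, the co-detecting barcodes held 2.42%. Calb1, a calcium buffer, was at 2445 CPM against 168 CPM and Acbd7 at 1568 CPM against 7.47 CPM. The median log2 ratio was 3.57 over the 26 listed genes with 10 UMIs in the other epithelial barcodes by themselves and 0 over all 9874 such genes, on levels where 3 counts stood in for fewer on the lower side.

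**Figure D5:**
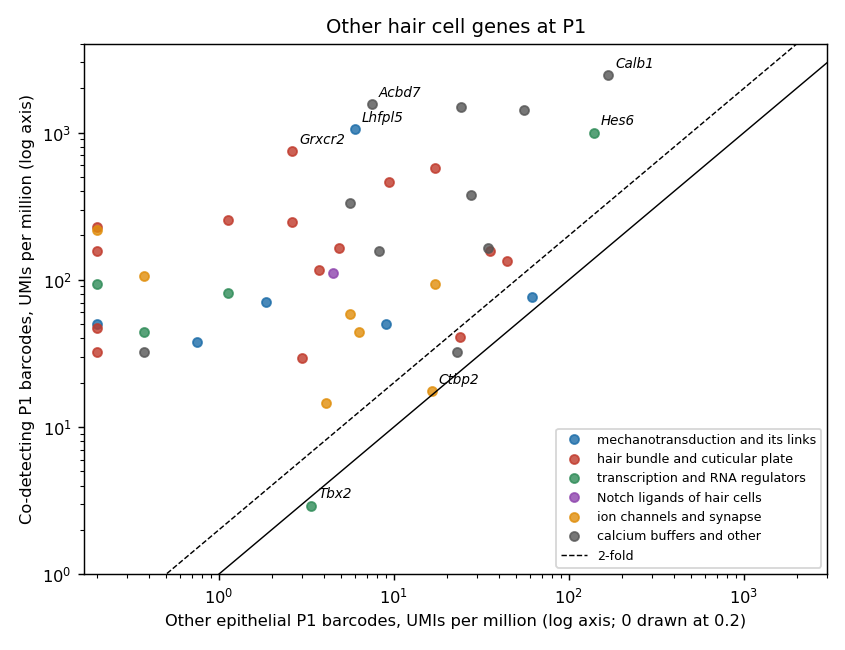
Level in CPM (both axes log) of the 44 other hair cell genes with at least 10 UMIs, in the 20 co-detecting (vertical) and the 283 other epithelial P1 barcodes (horizontal, 0 drawn at 0.2), coloured by role; the solid line marks equality and the dashed line 2-fold. Of the points, 39 lie at least 2-fold above equality, and Tbx2 lies just below it. Among the 44 genes, 18 reached 10 UMIs only with the co-detecting barcodes.

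The summed level of bundle genes was higher the more restricted genes a P1 barcode held. The 29 mechanotransduction and bundle genes in the matrices summed to 155 CPM (152 to 157) in P1 barcodes without a restricted gene and to 248 CPM (226 to 271) in those with 1. Barcodes with 2 were at 825 CPM (657 to 1023) and co-detecting ones at 4557 CPM (4341 to 4780). At P7 the sums were 128 CPM (125 to 130) without and 172 CPM (147 to 200) with 1 restricted gene, and at P14 147 CPM (140 to 154) and 82.0 CPM (35.4 to 162). These sums were not set beside all genes or split by cell class, so they are a description. P1 barcodes with 1 restricted gene were also deeper than those without (medians of 9680 and 6655 UMIs). Among Espn, Myo6 and Cib2, only Myo6 was lower in P1 barcodes with 1 restricted gene (67.35 CPM) than without (113 CPM).

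Genes of the surrounding epithelium were read in the co-detecting barcodes as well. Of 14 cochlear epithelium markers, 13 were at least 2-fold lower than in the other epithelial barcodes and Cdh1 was neither, beside 14.9% of all genes. Nothing is read from that count or from the folds of these markers given next. The reason is that the compared barcodes are nearly all of the cluster that was named from these markers. Epyc, an extracellular matrix protein of the greater epithelial ridge, had 0 UMIs against 2775, at least 118-fold lower, and Tectb, a protein of the tectorial membrane, was 17.4-fold lower. Epcam was 3.78-fold lower but found in all 21 barcodes. Of 10 supporting cell genes S100a1 was higher (1910 CPM against 240.1 CPM), Hey2, Jag1 and Emid1 were lower, and Sox2, Prox1 and Gata3 were neither; Fgfr3, Lfng and Hes5 had fewer than 10 UMIs.

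The 21 barcodes were also read for the inner and outer hair cell genes. Slc17a8 was found in 13 and missed in 8, with median totals of 18381 and 14632 UMIs. Cabp2 was at 459 CPM (377 to 554) in the 13 and 144 CPM (86.4 to 224) in the 8, and Calb1 at 2615 CPM (2412 to 2830) and 1745 CPM (1527 to 1985). Of the 22 genes compared, only these 2 had intervals that did not overlap, and several had too few UMIs to differ. The share over all genes was not computed, so nothing is read from that count. Single barcodes overlapped: Cabp2 had 0 to 22 UMIs in the 13 and 0 to 7 in the 8. Calb1 had 0 to 112 and 9 to 84. Otof was at 816 CPM (705 to 940) and 635 CPM (506 to 786), which overlapped. Slc26a5 had 1 UMI over the 21, and Ikzf2 and Kcnn2, markers of outer hair cells or of their maturation, had 0, while Chrna9 was in 19 and Chrna10 in 18. The split rests on single UMIs of Slc17a8 in several barcodes, so a barcode without it may have missed it by depth.

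The genes outside all lists whose UMIs lay most in the co-detecting barcodes were found by ranking 16092 genes with at least 30 UMIs by that share. The co-detecting barcodes held 0.167% of all UMIs, and the median gene had 0.0952% of its UMIs there. Fgf8, a growth factor made by inner hair cells, had 89 of its 100 UMIs in them (89.0%, 81.2 to 94.4), from 9 of the 21 barcodes. Dnajc5b, a J-domain co-chaperone, had 51 of 61 and LOC108351043 343 of 410. Lower shares, from 74.7% down to 65.4%, were those of AABR07044460, Ckmt2 (mitochondrial creatine kinase), AABR07010717, Nppa (a natriuretic peptide), Rasd2 and Cfap126. On the same measure Otof stood at 82.9%, Pou4f3 at 81.7% and Atoh1 at 75.0%, values that the choice of barcodes fixes in part.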

How the data were processed

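Single-cell libraries of rat cochlea at P1, P7 and P14 (1 per stage) were read from the deposited UMI count matrices. Per the labels and the study's methods, the authors demultiplexed with bcl2fastq, counted UMIs with Cell Ranger (3.1.0 in the file headers) from 10x 3′ libraries on rat genome rn6 and analysed them in Seurat 3.1.1; the annotation and cell-calling rule are not given in the sources used here. The deposited counts were not normalized. 3′ counts were compared within a gene only.

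Barcodes with more than 500 genes and less than 25% mitochondrial UMIs were kept, with no upper limit on genes. UMIs in kept barcodes ran from 11673483 to 112269286 per library. The 10 genes and the lists were chosen with earlier results of these data known. Seurat 5.3.0 (R 4.3.3) clustered the merged barcodes on 2000 variable genes without the hair cell genes, with 10 principal components, resolution 0.8 and seed 0. A cluster was named, by a rule chosen after its values were seen, where a list's mean log2 ratio (10 CPM added) reached 0.5 with at least 3 markers in 25% of its barcodes and more genes of the top 10 than any other list, and at most 50% of its barcodes were marked by Scrublet; 12 clusters stayed unnamed. Other epithelial barcodes are the cochlear epithelium-like and hair cell-like clusters without the co-detecting barcodes. Doublets were kept. Scrublet (scanpy 1.11.5) marked 639, 778 and 2 barcodes at P1, P7 and P14. Its calls at P14 were not relied on, and why so few were marked there was not tested.

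Named were the 10 genes, listed hair cell and marker genes, and the 10 unlisted genes (at least 30 UMIs) with the largest share in co-detecting barcodes; some genes under these rules are not reported here. Where no UMI was counted, 3 counts served as the limit. Scripts (Python 3.11.15, numpy 2.4.6, scipy 1.17.1, pandas 2.3.3, matplotlib 3.10.9) were tested on simulated data. Tomt, Insm1 and Ocm of the list are not among the matrices' symbols. Levels outside the neuron-like class and without the co-detecting barcodes were added after seeing the data. Alternatives varied the barcode filter, co-detection limit, depth, clustering and comparison group. Promoter windows came from RefSeq (GRCr8) by symbol, and no coordinates were taken across builds.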

Additional observations from a re-analysis of the deposited data

Results flagged for a closer look

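Outside the barcode filter, 2 further P1 barcodes had at least 3 restricted genes, a signal in data that the comparisons leave out. Both failed the mitochondrial limit. The first had 4766 UMIs with 26.5% mitochondrial and 4 restricted genes (Otof 2, Myo7a 1, Pou4f3 1 and Cabp2 1 UMIs), and the other 8452 UMIs with 56.9% mitochondrial and 5 restricted genes (Otof 5, Slc17a8 3, Tmc1 2, Cabp2 2 and Pou4f3 1 UMIs). The excluded barcodes numbered 906 at P1, 1837 at P7 and 1076 at P14, and 0 of those at P7 and P14 had 3 restricted genes, which allows up to 0.163% and 0.279%.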

How the results depend on the processing

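Of the alternative values for the main results, 49 stayed close to the value reported and 13 moved. With a mitochondrial limit of 10%, chosen as one of the alternatives, the co-detecting barcodes at P1 went from 21 to 1, and the 7 restricted genes went to 1.33 CPM at P1 and 0.737 CPM at P7. They were at 7.59 CPM at P1 with fewer than 5000 genes per barcode and at 4.39 CPM as a mean of each barcode's CPM. Thinned to 1000 UMIs, 3 co-detecting barcodes were left at P1, and the shares with a restricted UMI were 0.320%, 0.112% and 0.0880% at P1, P7 and P14. Thinned to 1614 UMIs, near the P14 median (chosen after seeing the data), 6 were left. In the epithelium-like and hair cell-like clusters alone (chosen after seeing the data), the shares were 9.57%, 4.35% and 0%. Requiring 2 or 4 restricted genes, 5 of all 10 genes, 2 UMIs per gene, no barcode filter (chosen after seeing the data) or no Scrublet-marked barcodes gave between 17 and 28 co-detecting barcodes at P1 and 0 at P7 and P14. The number of other hair cell genes at least 2-fold higher ran from 37 to 49. At resolution 0.4 no cluster was hair cell-like, so that setting gave no value. Of the values for single genes, 150 stayed within the counting interval and 30 moved beyond it, 13 of them under the 10% limit and 3 without the neuron-like class (chosen after seeing the data). With the 10% limit Espn was at 7.12 CPM at P1 and 8.64 CPM at P14. No paired analysis was possible because each stage has 1 library. Leaving out a library would leave a stage empty. The small number of barcodes and the depth at P14 limit every statement on the later stages.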
